A study of Homo sapiens with 18 samples.

Results

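The subject is the K562 cells of this series that received no lentivirus: 3 of the 18 RNA-seq libraries, chosen by their titles alone, which number them 1 to 3 as untransduced controls. K562 is a human erythroleukaemia line that carries the BCR-ABL fusion and was grown in RPMI1640 with 10% fetal bovine serum. For these 3 libraries the labels give no transduced gene and no gRNA target, whereas the other 15 libraries came from cells given dCas9 or dCas9-KRAB by lentivirus and are not compared here. The labels do not say whether the 3 libraries came from separate cultures, so the spread between them may be biological or technical, and they do not say whether these cells met the polybrene or the puromycin used for the transduced ones. With 1 group there is no contrast and no test, and all differences below are descriptions of 3 libraries.

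K562 cells resemble red cell precursors halted early: they make embryonic and fetal haemoglobin, driven by the erythroid factors GATA1, TAL1 and NFE2 acting through the enhancers upstream of the beta-globin cluster, and hardly any adult beta-globin. BCR-ABL signals through STAT5, which turns on genes such as PIM1 and SOCS2. Like other cultured cells they also carry stress programmes that follow the state of the culture. The integrated stress response raises the factor ATF4 when amino acids run short or proteins misfold, and ATF4 turns on genes of amino acid synthesis and transport, while the heat shock response raises cytosolic chaperones.

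Polyadenylated RNA was captured on oligo-dT beads and tagged with a Nextera transposase, which does not mark the strand, so a gene and an overlapping antisense gene cannot be told apart. The 3 files held 34032962, 32330234 and 30561028 counts, at 2 counts per sequenced fragment. Levels are in counts-per-million (CPM) after scaling by the trimmed mean of M-values, and sets of 3 values are always in the order of libraries 1, 2 and 3. A mean of 1 CPM or more was reached by 12567 of 24408 genes, and 6218 genes had no count in any of the 3 libraries. A count of 0 in a library still allows up to 3 fragments, which is 0.179, 0.180 and 0.199 CPM. This limit covers counting error only, and the reads carry no molecular identifiers.

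Library 2 stood apart from the other 2. Numbers of genes that ranged over 2-fold or more, and summary measures of spread, are therefore also given without it. Levels and folds of single genes are not. Spread was described for the 9274 genes at a mean of 10 CPM or more. A gene was called wide-ranging when its highest library was at least 2-fold its lowest on CPM + 0.5, which held for 906 of the 9274 genes (9.77%). Library 2 was the highest in 414 of them (4.46% of the 9274) and the lowest in 491 (5.29%). With plain CPM, which places library 2 higher by 0.06 on the log2 scale, the numbers were 485 and 409 of 895. Whatever the range, library 2 was the highest library in 38.1% of the 9274 genes and the lowest in 50.6%, or 43.4% and 44.9% with plain CPM. With library 2 left out, 36 genes remained wide-ranging of the 9187 that then passed the filter. Of the 906 genes 158 were below 10 CPM in at least 1 library, so they passed the filter through the libraries in which they were high. The gene just inside the threshold, SKA1, had a log2 range of 1.00009, and the nearest one outside had 0.999813. Ribosomal RNA took 0.533, 0.508 and 0.736% of the counts.

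The globin genes gave the embryonic and fetal pattern known for K562. The gamma-globin genes HBG2 and HBG1, which encode the fetal beta-like chain, read 981, 635 and 881 CPM and 918, 569 and 809 CPM. They are near-identical copies whose reads the counting may have split in an unknown way, and summed they read 1899, 1204 and 1690 CPM, or 1598 ± 356 (SD, n = 3). HBE1, the embryonic epsilon-globin gene, read 658, 530 and 598 CPM, with a CV of 10.8%. In all of these library 2 was the lowest, by 1.58-fold at most for the summed gamma genes and 1.24-fold for HBE1, and none was wide-ranging. The ratio of HBE1 to the summed gamma genes was highest in library 2, at 0.346, 0.440 and 0.354.

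The minor members of the beta-globin cluster varied far more than the main ones. HBD, which encodes the delta chain of a minor adult haemoglobin, read 18.1, 2.89 and 14 CPM, a 6.27-fold range from 608 counts in library 1 to 96 in library 2. The pseudogene HBBP1, which lies between the gamma and delta genes, read 41.6, 5.59 and 31 CPM, a 7.45-fold range. Library 2 was the low one in both, and libraries 1 and 3 were close to each other. HBB, the adult beta-globin gene, read only 1.19, 0.421 and 0.731 CPM. In a bulk library, fewer cells that express a gene and less of its RNA per cell cannot be told apart.

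In the alpha-globin cluster the adult-type genes HBA1 and HBA2, again near-identical, summed to 793, 408 and 702 CPM. The embryonic zeta gene HBZ read 204, 83.1 and 211 CPM, with a range of 2.54-fold. Library 2 was lowest for both, while library 3 was slightly above library 1 for HBZ. The theta gene HBQ1 was even across the libraries at 6.25, 6.37 and 5.85 CPM, and HBM had no count. All alpha-like genes together made 0.389, 0.286 and 0.399 of the summed CPM of the coding beta-like genes, so the alpha-like genes were the further below in library 2. Per kilobase of transcript, a scale on which genes can be set side by side, HBG2 averaged 1355 and HBG1 983 CPM per kb against 1343 for the glycolytic enzyme GAPDH, 961 for the actin gene ACTB and 1174 for the elongation factor EEF1A1. HBE1 lay at 966, HBA1 at 589 and HBZ at 220 CPM per kb.

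The listed regulators of the erythroid lineage were all present. The 11 include repressors and the receptor gene EPOR. Each of the 11 exceeded 10 CPM, and 2 of the 11 were wide-ranging against 9.77% of all genes. GATA1, the master factor of the erythroid lineage, read 286, 252 and 287 CPM, and its partner TAL1 read 194, 178 and 195 CPM. GFI1B, a repressor needed for red cell and platelet formation, read 144, 137 and 137 CPM. These 3 genes differed little between libraries, with CVs of 7.24, 5.01 and 2.84%. KLF1, the activator of adult beta-globin, read 112, 71.3 and 107 CPM. The wide-ranging pair was LMO2, the bridge of the GATA1 and TAL1 complex, at 108, 49.4 and 98.4 CPM, and ZFPM1, the GATA1 cofactor also called FOG1, at 33.9, 14.1 and 29.8 CPM. Library 2 was lowest in LMO2 and ZFPM1 and in 9 of the 11 genes (8 with plain CPM, where GFI1B was not), against 50.6% of all genes. The exceptions under either scaling were MYB, which keeps precursors dividing, at 229, 363 and 287 CPM, and SOX6, a silencer of embryonic globin, at 25.1, 38.6 and 33.3 CPM.

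Among the regulators that switch cells from fetal to adult globin, BCL11A, the main repressor of the gamma genes, was at or near 0, with a single fragment in library 2 and none in the others. The fetal-stage RNA-binding proteins stood high: LIN28B read 274, 177 and 278 CPM and IGF2BP1 587, 335 and 492 CPM. HIC2, a repressor of BCL11A, read 449, 273 and 397 CPM. In LIN28B, IGF2BP1 and HIC2 library 2 was again the lowest, by at most 1.75-fold. None of the 6 regulators at 10 CPM or more was wide-ranging, against 9.77% of all genes. ZBTB7A, the other known repressor of the gamma genes, came nearest at 53.8, 27.2 and 44.4 CPM.

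The haem pathway was complete and even, with a median CV of 5.79% against 14.3% over all genes at 10 CPM or more. All 9 enzymes from ALAS1 and ALAS2 to FECH exceeded 10 CPM, and none was wide-ranging, against 9.77% of all genes. ALAS2, the erythroid form of the first enzyme, read 58.6, 59.1 and 60.4 CPM, a CV of 1.56%. UROD, in the middle of the pathway, read 535, 479 and 524 CPM and FECH, which inserts the iron, 214, 195 and 217 CPM. Of 11 iron handling genes 3 were wide-ranging against 9.77% of all genes, 2 of them lowest in library 2. TFRC, the transferrin receptor that brings iron into the cell, read 1089, 366 and 932 CPM, a 2.97-fold range with library 2 low. STEAP3, which reduces that iron in the endosome, was low in the same library at 121, 45.9 and 90.3 CPM. FTH1, the ferritin heavy chain that stores iron, read 524, 721 and 558 CPM and was highest in library 2, short of the 2-fold threshold. HMOX1, which degrades haem, had no count in any library.

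Surface and skeleton genes of the red cell were present in uneven amounts and varied like the typical gene, with a median CV of 14.1% against 14.3% over all genes at 10 CPM or more. Of 20 listed, 19 exceeded 10 CPM and 1 of the 19 was wide-ranging against 9.77% of all genes: AQP1, a water channel, at 18.1, 4.21 and 10.4 CPM with library 2 lowest. RHAG, the Rh-associated glycoprotein, had the highest level per kb of those with a known length and read 707, 629 and 696 CPM. GYPC, a glycophorin tied to the membrane skeleton, read 176, 240 and 191 CPM. GYPC was higher in library 2, whereas ANK1, the ankyrin that ties the membrane to its skeleton, was lower there at 503, 290 and 447 CPM. SLC4A1, the anion exchanger of mature red cells, stayed low at 20.9, 17.6 and 19.3 CPM. Of 11 listed genes of red cell enzymes and maturation, 7 had a mean of 10 CPM or more, the highest being BLVRB at 265, 307 and 256 CPM. The 1 wide-ranging gene of the 7, against 9.77% of all genes, was BNIP3L at 44.6, 104 and 62.4 CPM, highest in library 2. Some genes of late maturation were low, with CA1 at 6.97, 5.47 and 5.98 CPM and the alpha-globin chaperone AHSP at 4.64, 2.52 and 2.73 CPM. CA2 was under 1 CPM in each library.

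**Figure D1:**
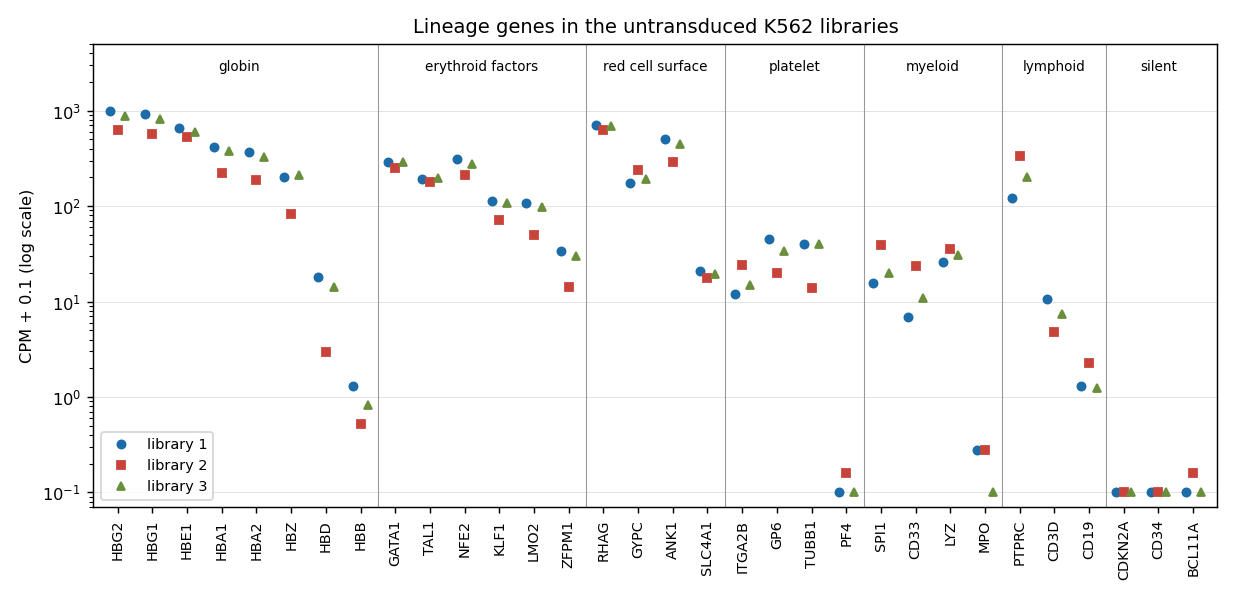
Level of lineage genes in the 3 untransduced libraries. The y axis is CPM + 0.1 on a log scale, each symbol is 1 library, and vertical lines part the gene groups. Gamma, epsilon and alpha genes lie above 100 CPM, as do GATA1 and TAL1 of the erythroid factors, whereas ZFPM1 lies well below it. CD34 and CDKN2A sit at 0, and library 2 (square) is the lowest for most globin genes and the highest for PTPRC, SPI1 and CD33.

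Genes of the platelet lineage, which K562 cells can enter when induced, were mostly silent. Only 4 of 14 exceeded 10 CPM, and PF4, GP9, FLI1, SELP and TREML1 had at most 2 fragments in any library. GP6, the platelet collagen receptor, read 45.4, 20.02 and 34.1 CPM and TUBB1, the platelet tubulin, 39.9, 13.8 and 39.9 CPM. Library 2 was low in both, which made them the 2 wide-ranging genes of the 4, against 5.29% of all genes with library 2 lowest. ITGA2B, the platelet integrin chain CD41, was instead highest in library 2 at 11.9, 23.9 and 14.9 CPM and fell just short of the 2-fold threshold on CPM + 0.5.

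Markers of progenitors were largely present, while those of myeloid and lymphoid cells were mostly absent. Of 10 progenitor genes 6 had a mean of 10 CPM or more, and none of the 6 was wide-ranging, against 9.77% of all genes. CD34 and PROM1, surface markers of blood stem cells, had no count in any library, and KIT read 1.25, 3.67 and 2.39 CPM. GATA2, a factor of blood progenitors, was abundant at 343, 179 and 247 CPM, as were SPN, the surface sialophorin CD43, at 324, 203 and 246 CPM, the factor LYL1 at 106, 92 and 101 CPM and the factor RUNX1 at 82.4, 133 and 96.7 CPM. Library 2 was lowest for GATA2, SPN and LYL1 and highest for RUNX1. The granule genes MPO, ELANE and PRTN3 and the monocyte marker CD14 stayed under 1 CPM, and S100A8 and S100A9 were at 0. Of 16 granulocyte and monocyte markers 3 had a mean of 10 CPM or more, and these read highest in library 2: SPI1, the myeloid factor PU.1, at 15.4, 39.3 and 19.9 CPM, the surface lectin CD33 at 6.85, 23.3 and 10.9 CPM and lysozyme, LYZ, at 26.1, 35.8 and 30.4 CPM. SPI1 and CD33 were wide-ranging, against 4.46% of all genes with library 2 highest. PTPRC, the pan-leukocyte phosphatase CD45, read 122, 334 and 202 CPM and was wide-ranging too, with library 2 highest. It was the only one of 14 lymphoid markers at a mean of 10 CPM, and the T-cell marker CD8A and the B-cell genes MS4A1 and PAX5 had no count.

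Some epithelial genes were abundant. The keratins KRT8 and KRT18 read 647, 321 and 531 CPM and 484, 334 and 424 CPM, and the adhesion protein EPCAM read 83.4, 81.4 and 88.3 CPM. CDH1, the epithelial cadherin, was nearly absent, at 0.179, 0.120 and 0.266 CPM, and KRT5, LUM and ALB had no count. KRT8 just passed the 2-fold threshold with library 2 lowest, while EPCAM was even. COL1A2, a fibrillar collagen gene, was also low in library 2 at 38.8, 16.5 and 30.5 CPM.

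Of 6 listed tumour suppressors and genes of the 9p21 region, 3 that are known to be lost or inactive in K562 were absent or at trace level. The cell cycle inhibitors CDKN2A and CDKN2B had no count, and their neighbour MTAP read 0.357, 0.421 and 0.332 CPM. Of the rest of that list, 2 genes had a mean of 10 CPM or more. Both were highest in library 2 and neither was wide-ranging, against 9.77% of all genes. Genes of BCR-ABL signalling were high: STAT5A read 930, 633 and 835 CPM and STAT5B 429, 627 and 460 CPM. The counts of BCR and ABL1 cannot separate the fusion from the normal genes. Of 12 such genes 2 were wide-ranging, against 9.77% of all genes, and both were STAT5 targets with library 2 highest. PIM1, a survival kinase, read 506, 1246 and 715 CPM, and SOCS2, a feedback inhibitor of cytokine signals, read 148, 417 and 233 CPM. Other targets of the same pathway were even, with the survival gene BCL2L1 at 287, 277 and 270 CPM and the cyclin CCND2 at 162, 157 and 155 CPM.

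Housekeeping genes varied like the typical gene, with a median CV of 13.7% against 14.3% over all genes at 10 CPM or more. Of 18, 1 was wide-ranging, against 9.77% of all genes: POLR2A, the largest subunit of RNA polymerase II, at 414, 191 and 326 CPM. GAPDH read 2455, 1673 and 2306 CPM and ACTB 1947, 1470 and 1808 CPM, so both were lowest in library 2, by 1.47-fold and 1.32-fold. YWHAZ, a signalling adaptor, was steadier at 1107, 1187 and 1166 CPM. EEF1A1 was the most abundant gene at 4959, 5595 and 5089 CPM. The 77 ribosomal protein genes summed to 32031, 33983 and 30685 CPM, and 1 of them was wide-ranging, against 9.77% of all genes. The most even genes above 100 CPM were DYNC1I2, a dynein chain, at 187 CPM in each library with a CV of 0.112%, and PDLIM1, a cytoskeletal adaptor, and OTUD5, a deubiquitinase, with CVs of 0.123 and 0.364%. Among known genes of the secretory pathway CALR, at 682, 689 and 693 CPM, and RPN1 also had CVs below 1%. These CVs hold for the scaling used: with plain CPM they were between 2.17% for RPN1 and 2.77% for CALR.

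Proliferation genes were high and mostly within 2-fold, with the replication genes lower in library 2 in sum. All 14 replication genes exceeded 10 CPM, and they summed to 4394, 3467 and 4177 CPM. Library 2 was the lowest in 12 of the 14 (10 with plain CPM), against 50.6% of all genes. The median log2 of library 2 over library 1 was -0.35, against -0.08 over all genes. Of the 14, 1 was wide-ranging, against 9.77% of all genes: CCNE1, the cyclin that starts replication, at 51.9, 25.6 and 41.3 CPM. MCM7, of the replicative helicase, read 913, 735 and 827 CPM. None of the 14 mitosis genes at 10 CPM or more was wide-ranging, against 9.77% of all genes. The topoisomerase TOP2A, at 463, 760 and 617 CPM, was highest in library 2, whereas MKI67, the marker Ki-67, was lowest there at 244, 152 and 234 CPM.

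Among the lists with 3 or more members at 10 CPM, the integrated stress response had the highest median CV, 60.1%. Of 27 members at 10 CPM or more 22 were wide-ranging with library 2 highest, against 4.46% of all genes. Library 2 was the highest in all 27, against 38.1% of all genes. Library 3 lay between libraries 1 and 2 in each of the 27, against 6370 of all 9274 genes. The 29 genes of the list summed to 3406, 10360 and 5413 CPM. With library 2 left out 11 of the 27 were still wide-ranging between libraries 1 and 3, against 36 of 9187 genes. The lists, heat shock among them, were chosen with earlier results of these data known, so such shares are descriptions and not a test.

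The factors of the response came first. ATF4, which is controlled mostly at translation, read 303, 468 and 340 CPM, a range of 1.54-fold. Its target DDIT3, the pro-apoptotic factor CHOP, read 13.6, 84.7 and 29 CPM, ATF3, a repressor of the same family, 24.7, 124 and 51.1 CPM, and ATF5 65.2, 446 and 179 CPM. In these 3 targets library 2 was 6.21-fold, 5.00-fold and 6.84-fold above library 1, and library 3 was more than 2-fold above library 1. The feedback genes TRIB3, an inhibitor of ATF4, and PPP1R15A, which restores translation, read 185, 565 and 294 CPM and 96.8, 234 and 137 CPM.

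Enzymes of amino acid supply spread widely. ASNS, asparagine synthetase, read 293, 1470 and 628 CPM, or 797 ± 606 (SD, n = 3). PHGDH, the first enzyme of serine synthesis, read 51.7, 449 and 176 CPM, and the later enzymes PSAT1 and PSPH read 183, 554 and 306 CPM and 23.5, 75.7 and 40.4 CPM. The serine pathway was highest in library 2 at every step, by 8.69-fold, 3.03-fold and 3.23-fold over library 1. MTHFD2 and ALDH1L2, of mitochondrial folate metabolism, read 311, 914 and 485 CPM and 13.5, 186 and 68.4 CPM. CTH, which makes cysteine, read 17.6, 172 and 59.4 CPM, and CHAC1, which degrades glutathione, 13.6, 101 and 40.7 CPM. ALDH1L2 and CTH had the widest spans of these enzymes, 13.8-fold and 9.78-fold.

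Transporters and secreted factors followed the same order of libraries. SLC7A11, the cystine carrier, read 51.5, 263 and 114 CPM, whereas SLC7A5 and SLC3A2, the 2 chains of a leucine carrier, read 460, 780 and 548 CPM and 194, 382 and 238 CPM, short of the 2-fold threshold. INHBE, a hormone of the activin family, read 12.9, 200 and 67.1 CPM, the widest of the list at 15.5-fold. GDF15, a stress hormone, read 30.2, 176 and 80.6 CPM. The least variable of the 27 was SLC7A1, the arginine carrier, at 212, 288 and 234 CPM.

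Chaperones of the endoplasmic reticulum, which answer to misfolded proteins there, varied less. Library 2 was the highest in 13 of 15, against 38.1% of all genes. Of the 15, 4 were wide-ranging with library 2 highest, against 4.46% of all genes: HSPA5, the main chaperone BiP, at 680, 1592 and 995 CPM, HERPUD1 at 32, 106 and 50.1 CPM, DNAJB9 at 14.6, 44.7 and 22.5 CPM and EDEM1 at 49.96, 136 and 70.5 CPM. The last 3 act in folding quality control and the removal of misfolded proteins. PDIA6, a disulphide isomerase, did not share this at 362, 372 and 355 CPM.

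Most heat shock genes ran opposite to the integrated stress response. Of 10 members at 10 CPM or more 9 were wide-ranging with library 2 lowest, against 5.29% of all genes. Library 2 was the lowest in all 10, against 50.6% of all genes. The 11 genes of the list summed to 8938, 3411 and 8207 CPM. Without library 2 none of the 10 was wide-ranging, and outside the stress response the lists then held 2 such genes, TNFRSF10B and RN7SL1. HSPA8, the constitutive HSP70 and 1 of the 20 most abundant genes, read 2864, 829 and 2872 CPM, or 2188 ± 1177 (SD, n = 3). HSP90AA1, the inducible HSP90, read 3041, 1266 and 2771 CPM. The inducible HSP70 genes HSPA1A and HSPA1B, near-identical copies, summed to 1272, 236 and 901 CPM, a 5.38-fold range. Libraries 1 and 3 were level for HSPA8 and library 2 alone was low, while for the summed HSPA1 genes library 3 lay between. HSPE1, the mitochondrial co-chaperonin, read 47.9, 14.7 and 35.6 CPM, whereas its partner HSPD1, at 1038, 803 and 1046 CPM, was the 1 member of the 10 that was not wide-ranging. HSPA6, a strictly inducible HSP70 with a mean below 10 CPM, went the other way. It was highest in library 2, at 7.5, 13.1 and 6.91 CPM.

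**Figure D2:**
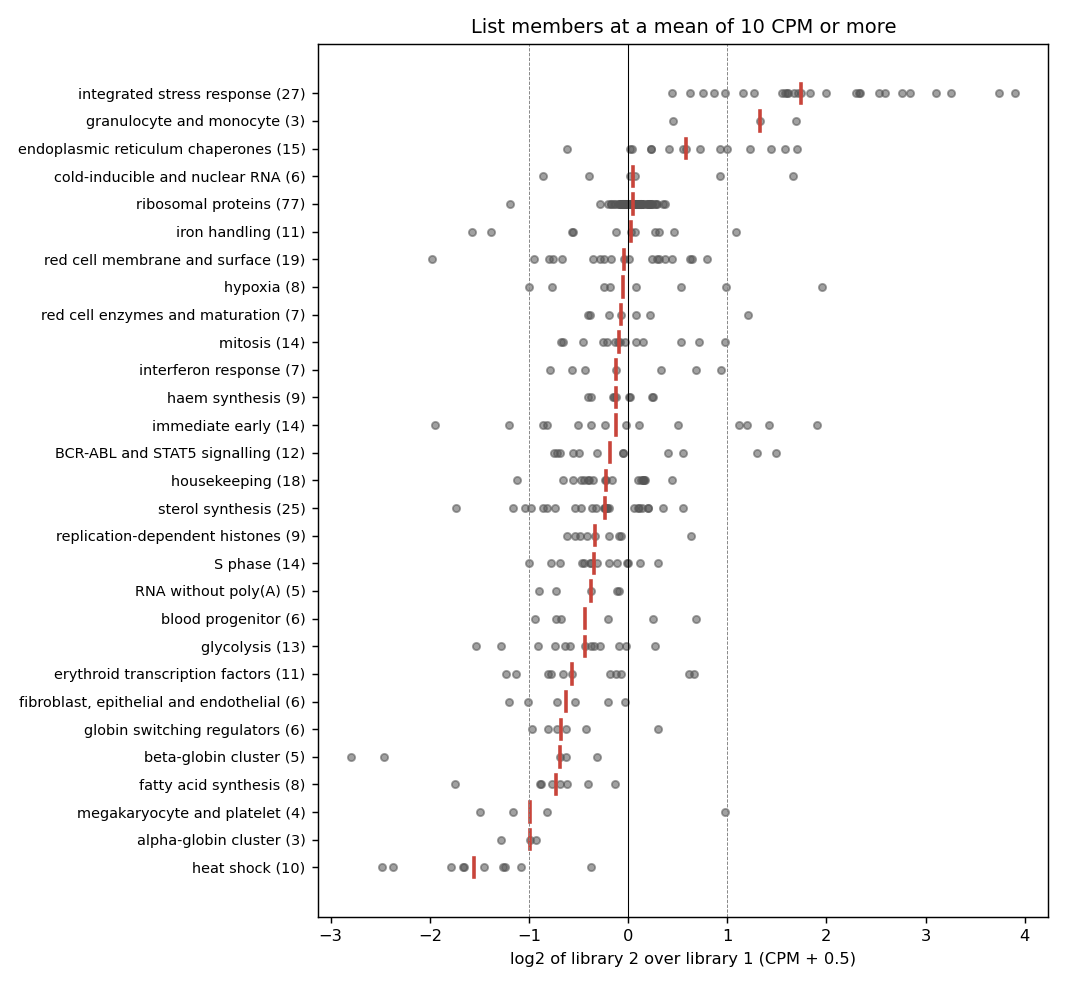
Log2 of library 2 over library 1 for the members of 29 lists at a mean of 10 CPM or more (number in brackets). Each grey point is 1 gene, the red bar is the median of the list, and dashed lines mark 2-fold either way. The integrated stress response has the highest median, 1.74, and heat shock the lowest, -1.55, while the median over all genes at 10 CPM or more was -0.08.

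Promoters of 3 members of each of these 2 programmes are shown so that the letters their known regulators read can be seen; they were picked from the wide-ranging members that held the motif. The windows run from 250 bases before to 50 bases after a start site in the RefSeq table of build GRCh38.p14, a build other than the hg19 of the counts, and entries were found for 23 of 29 stress response genes and all 11 heat shock genes. For the stress response the motif was TGATGNAA, the core of the C/EBP-ATF response element, on either strand, and capitals mark it.
ASNS, chr7:97872359-97872658, minus strand: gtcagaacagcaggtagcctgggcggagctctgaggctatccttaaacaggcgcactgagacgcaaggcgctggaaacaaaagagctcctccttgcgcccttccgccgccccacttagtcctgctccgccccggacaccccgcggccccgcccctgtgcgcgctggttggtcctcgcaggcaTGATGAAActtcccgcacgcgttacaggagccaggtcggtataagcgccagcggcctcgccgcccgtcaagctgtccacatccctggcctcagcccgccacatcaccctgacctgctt
ATF3, chr1:212565157-212565456, plus strand: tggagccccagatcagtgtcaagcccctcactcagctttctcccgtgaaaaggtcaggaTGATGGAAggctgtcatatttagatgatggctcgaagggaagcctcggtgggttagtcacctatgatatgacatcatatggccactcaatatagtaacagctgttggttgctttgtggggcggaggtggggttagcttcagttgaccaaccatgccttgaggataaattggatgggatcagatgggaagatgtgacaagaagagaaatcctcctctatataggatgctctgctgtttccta
CHAC1, chr15:40953221-40953520, plus strand: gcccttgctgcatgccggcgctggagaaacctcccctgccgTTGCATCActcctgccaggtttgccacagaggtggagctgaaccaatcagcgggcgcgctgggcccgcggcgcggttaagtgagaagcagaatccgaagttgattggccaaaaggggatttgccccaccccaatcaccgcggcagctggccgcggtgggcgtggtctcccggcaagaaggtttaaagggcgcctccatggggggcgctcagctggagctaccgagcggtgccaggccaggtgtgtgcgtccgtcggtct
The match lay 68 bases before the start site in ASNS, 191 in ATF3 and, on the opposite strand, 209 in CHAC1. Of the 23 genes with a window 6 held the motif (26.09%): ASNS, ATF3, CHAC1, CEBPG, SLC3A2 and SLC7A1. The share over all 27305 genes with a window was 4.46%. Of these 6 genes SLC7A1 varied 1.36-fold and CHAC1 7.41-fold, so a match in the window did not go with one size of spread.

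For heat shock the motif was GAANNTTC, 2 head-to-head units of the heat shock element, which reads the same on both strands in its fixed letters, and capitals mark each match.
HSPA8, chr11:123062087-123062386, minus strand: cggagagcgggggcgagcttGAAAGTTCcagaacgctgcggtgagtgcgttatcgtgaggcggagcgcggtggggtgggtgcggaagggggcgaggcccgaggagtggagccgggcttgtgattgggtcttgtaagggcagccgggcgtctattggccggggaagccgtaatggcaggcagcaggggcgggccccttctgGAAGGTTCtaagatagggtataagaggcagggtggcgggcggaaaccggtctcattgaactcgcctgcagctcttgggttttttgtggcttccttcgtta
HSPA1A, chr6:31815293-31815592, plus strand: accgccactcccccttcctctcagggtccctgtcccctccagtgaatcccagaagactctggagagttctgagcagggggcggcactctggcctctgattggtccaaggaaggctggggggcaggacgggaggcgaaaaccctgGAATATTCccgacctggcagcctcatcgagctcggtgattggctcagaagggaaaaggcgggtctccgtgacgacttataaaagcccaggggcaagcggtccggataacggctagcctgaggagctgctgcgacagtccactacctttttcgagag
HSPB1, chr7:76302423-76302722, plus strand: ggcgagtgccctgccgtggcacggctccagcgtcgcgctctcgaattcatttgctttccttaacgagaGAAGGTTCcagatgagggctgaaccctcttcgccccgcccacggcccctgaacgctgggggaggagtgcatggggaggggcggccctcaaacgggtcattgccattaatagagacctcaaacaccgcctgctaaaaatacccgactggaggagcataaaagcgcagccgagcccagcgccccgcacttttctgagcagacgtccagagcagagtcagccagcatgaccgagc
HSPA8 held 2 matches that do not overlap, 50 and 230 bases before its start site, HSPA1A held 1 at 106 bases and HSPB1 1 at 182 bases. The motif stood in 8 of the 11 heat shock genes (72.73%) and in 8.21% of all genes with a window. HSPB1, a small heat shock protein, read 157, 66.1 and 132 CPM. HSPD1, which also held the motif, was the even member of the list. A match is a description of the letters and not evidence of a bound factor.

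Lipid and sugar metabolism was lower in library 2 in sum. The 25 genes of sterol synthesis summed to 3975, 2907 and 3480 CPM. Of these 3 were wide-ranging, near the 9.77% of all genes, with library 2 lowest, and LSS, which closes the sterol rings, read 178, 79.6 and 124 CPM. FDPS, which makes the farnesyl units, was more even at 202, 172 and 190 CPM. The 8 genes of fatty acid synthesis summed to 5241, 3034 and 4406 CPM, with a median log2 of library 2 over library 1 of -0.73 against -0.08 over all genes. Library 2 was the lowest in all 8, against 50.6% of all genes. FASN, fatty acid synthase, read 1451, 433 and 1067 CPM and was the 1 wide-ranging gene of the 8, against 9.77% of all genes. The 13 genes of glycolysis summed to 10394, 7100 and 9449 CPM, with a median log2 of -0.44, and library 2 was the lowest in 11 (10 with plain CPM). Of the 13, 2 were wide-ranging with library 2 lowest, against 5.29% of all genes: PKM, pyruvate kinase, at 1096, 449 and 902 CPM and HK2, an inducible hexokinase, at 160, 55.1 and 136 CPM. HK1, the constant form, did not follow at 1447, 1361 and 1413 CPM.

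Hypoxia genes did not move together. VEGFA, the vascular growth factor, which ATF4 can also induce, read 71.9, 281 and 131 CPM with library 2 highest, but EGLN3, an oxygen sensor, read 17.6, 8.54 and 16.1 CPM with library 2 lowest. KDM3A, another hypoxia target, read 56.0, 59.1 and 58.7 CPM, and CA9 had no count. TNFRSF10B, the death receptor DR5, belonged to a separate list of p53 targets and read 29.5, 179 and 74.2 CPM, highest in library 2. That list was split: of its 9 members at 10 CPM or more library 2 was the highest in 5 and the lowest in 4. With plain CPM these numbers were 6 and 2. The shares over all genes were 38.1% highest and 50.6% lowest. None of the 7 interferon genes at 10 CPM or more was wide-ranging, against 9.77% of all genes. The induced genes IFI44, IFI44L, OAS1, OAS2 and OASL had no count.

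Immediate early genes, which answer within minutes to a signal, split. Of 14, 6 were wide-ranging against 9.77% of all genes: JUN at 18.6, 50.5 and 25.1 CPM, FOS at 7.74, 18.5 and 9.37 CPM, KLF6 at 29.2, 63.8 and 35.7 CPM and KLF10 at 29.4, 111 and 51.1 CPM were highest in library 2. JUNB, at 52.6, 22.6 and 35.2 CPM, and ID1, an inhibitor of differentiation factors, at 78.2, 19.96 and 62.1 CPM, were lowest there. EGR1, a common first responder to serum, stood at 69.3, 68.4 and 56.3 CPM.

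The genes with the widest range over all were lowest in library 1. IL20RB, a cytokine receptor chain, had 54, 3210 and 856 counts and read 1.61, 96.5 and 28.5 CPM, a 60.0-fold range. G0S2, an inhibitor of fat breakdown, read 0.595, 37.3 and 12.2 CPM, UNC5B, a netrin receptor, 3.04, 109 and 34.2 CPM, and ASS1, which makes the precursor of arginine, 3.27, 86.1 and 28.8 CPM. All 4 were highest in library 2, lowest in library 1 and in between in library 3. The other 11 of the 15 widest genes had the same order: INHBE and ALDH1L2 of the stress list, the testis chaperone gene CLGN, the myeloid membrane protein gene MS4A3, AKNA, BEX2, SH3BGR, HECW2, ANXA3, TM6SF1 and CYP2F1.

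**Figure D3:**
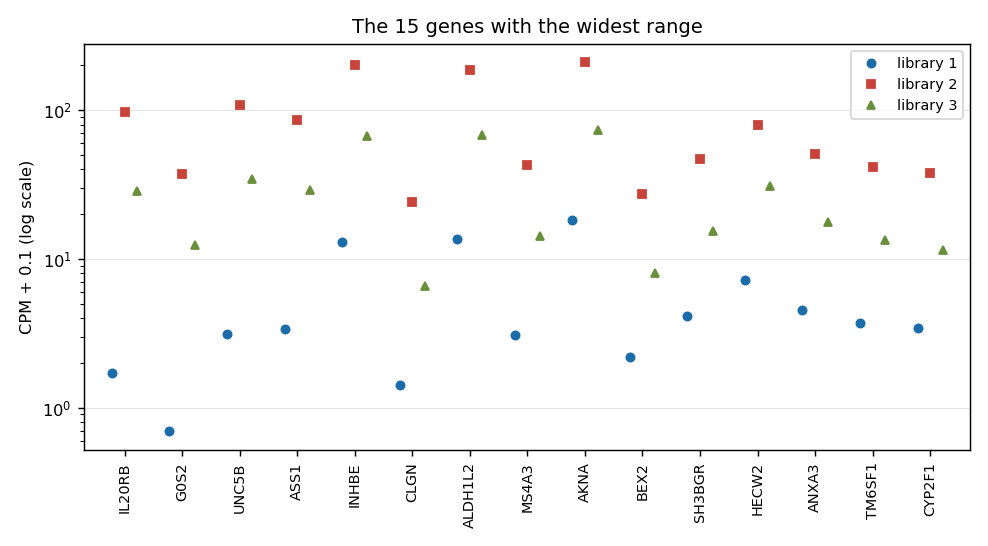
Level of the 15 genes with the widest range among those at a mean of 10 CPM or more, in order of range. The y axis is CPM + 0.1 on a log scale and each symbol is 1 library. In each gene library 1 is lowest, library 3 intermediate and library 2 highest, from 1.61 to 96.5 CPM for IL20RB.

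The pattern rested on library 2. A library was said to stand apart in a wide-ranging gene when it was the one farther from the middle library on the log2 scale. Library 2 stood apart in 824 of the 906 genes (90.9%), higher in 342 and lower in 482. Library 1 stood apart in 81, of which it was lower in 72, and library 3 in 1, the ribosomal RNA gene RNA18SN5 at 580, 449 and 1068 CPM. Between libraries 2 and 1, 414 genes were at least 2-fold higher and 486 at least 2-fold lower. Between libraries 3 and 1 the numbers were 53 and 1. The typical gene was far less affected: 68.5% of the 9274 genes ranged over 1.5-fold or less, and the median CV was 14.3% where counting alone would give 3.36%.

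The genes with the largest gap between library 2 and the next library show its 2 directions. Above the others stood MUC4, a membrane mucin, at 12.9, 114 and 34 CPM, SAT1, which breaks down polyamines, at 14.9, 79.5 and 28.6 CPM, FKBP9P1, CYP2F1 and DDIT3. Below stood NEFH, the heavy neurofilament chain, at 49.7, 5.89 and 44.9 CPM, ATAD3B, a mitochondrial membrane protein, at 144, 22.1 and 93.0 CPM, and HBBP1, HBD and HSPA1A, described above. The few genes that library 1 held above both others had small gaps: MTFP1, a mitochondrial fission protein, at 55.1, 23.4 and 33.7 CPM, ZGPAT at 21.4, 7.63 and 12.8 CPM, SPHK2, BATF2 and the signal recognition RNA RN7SL1.

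Library 3 lay between the other two in most of these genes, at a place that varied more where library 2 was below library 1. On the linear CPM scale, with library 1 at 0% and library 2 at 100%, library 3 lay between them in 891 of the 906 wide-ranging genes, at a median of 31% and an interquartile range from 24.6 to 38.9%. For the 76 genes with a range of 4-fold or more it lay between in all 76, at a median of 29.1% (26.8 to 31.4%). The 22 wide-ranging stress response genes had a median of 29.6%, from 21.6 to 38%. The 9 heat shock genes had 35.7%, from -0.387 to 39.6%, since HSPA8 and HSPH1, an HSP110 chaperone at 230, 72.7 and 228 CPM, were level between libraries 1 and 3. ASNS is an example inside the main body, and HSPA8 one outside it. These genes were chosen for differing between libraries, so their order in the 3 libraries is a description. Whether library 3 holds RNA or cells like those of library 2 was not tested.

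**Figure D4:**
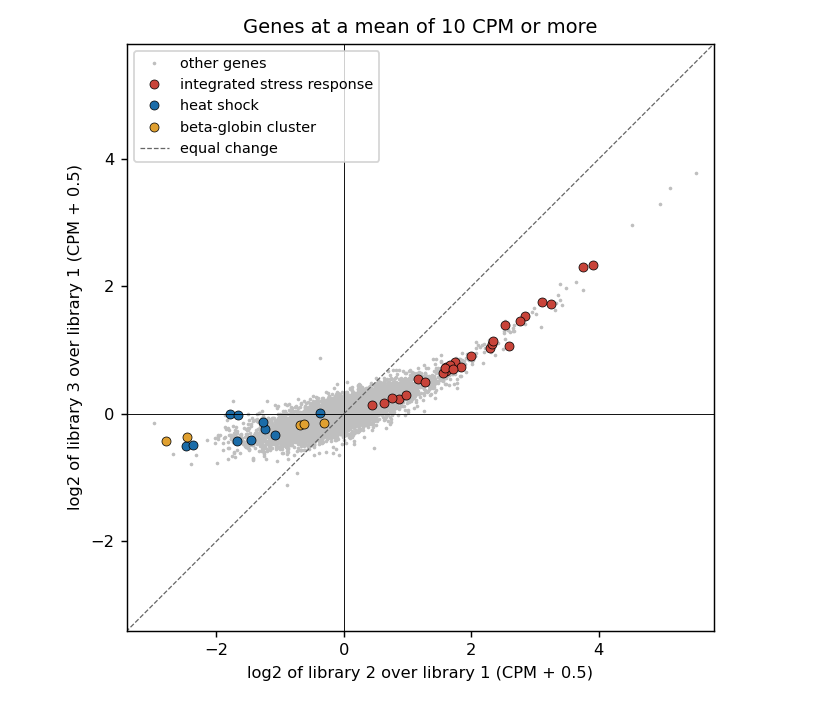
Log2 of library 3 over library 1 (y) against log2 of library 2 over library 1 (x), on CPM + 0.5, for the 9274 genes at a mean of 10 CPM or more. Grey points are other genes, coloured points are 3 of the lists, and the dashed line marks equal change. The points follow 1 band flatter than the dashed line, with the stress response at its right end and heat shock and minor globin genes at its left end. Both axes share library 1.

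**Figure D5:**
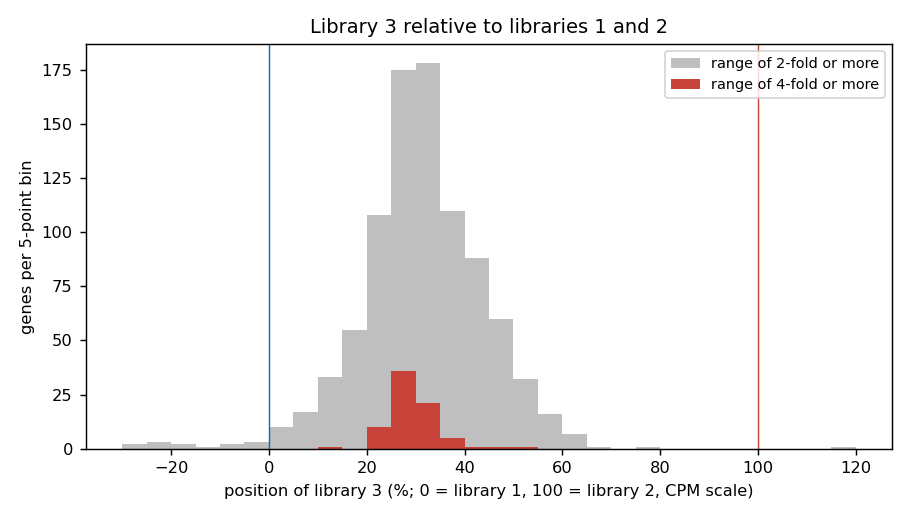
Position of library 3 on the CPM scale between library 1 (0%) and library 2 (100%) for the 906 wide-ranging genes, in bins of 5 points. Grey bars are all 906 and red bars the 76 with a range of 4-fold or more, and 1 gene, RNA18SN5, lies outside the axis. The red bars gather around the median of 29.1%.

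Dispersion over all genes was also set by library 2. The common biological coefficient of variation, edgeR's measure of spread beyond counting error, was 25.4% over the 12567 genes at 1 CPM or more. That value used the deposited counts, at 2 per fragment, and was 24.3% with the counts halved. On the deposited counts it was 13.7% with library 2 left out, 23.3% without library 1 and 34.5% without library 3. The median CV moved likewise, to 7.81% without library 2.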

How the data were processed

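Poly(A) RNA from 3 untransduced K562 libraries was described. The authors deposited raw counts of 40709 RefSeq transcripts per library. Named without roles in the submitters' processing notes are hg19, DESeq, R 3.1.2, Picard, SAMtools and Bowtie2; the counting tool and annotation are not given in the sources used here. All deposited counts were even, taken as 2 counts per fragment.

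Transcripts were summed to 24408 genes, with names for 97.87% of accessions and 99.04% of counts from the RefSeq and GENCODE tables. The other 868 accessions kept their own name. CPM used TMM factors of 0.987, 1.03 and 0.985 (edgeR 4.0.16, R 4.3.3), and DESeq2 1.42.0 size factors were an alternative. Lengths for CPM per kb were GENCODE transcript lengths weighted by counts. The log2 range used CPM + 0.5. No test between groups was made, and the code was tested on simulated data.

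Named genes were list members, the 20 most abundant, the 15 with the widest range, up to 5 per library and direction with the largest gap, and the 10 with the smallest CV at 100 CPM or more. The genes and lists were chosen with earlier results of these data known, and 4 lists, the heat shock motif and the sums of near-identical genes were added after the values were seen. Alternatives were other scalings, filters, pseudocounts and folds, unsummed transcripts and leaving out each library. Some genes of the lists are not reported here.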

Additional observations from a re-analysis of the deposited data

How the results depend on the processing

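The number of genes with a range of 2-fold or more moved from 906 to 1505 at a mean of 1 CPM, to 2920 at 1.5-fold, and between 36 (without library 2) and 907 when 1 library was left out (339 without library 1). Genes with library 1 apart numbered 250 at 1 CPM, 38 at 30 CPM, 398 at 1.5-fold and 137 with transcripts kept apart, in place of 81. Genes with library 2 apart numbered 1247 at 1 CPM and 2512 at 1.5-fold, in place of 824. Genes with library 3 apart numbered 2 with DESeq2 size factors, 8 at 1 CPM, 2 with no pseudocount and 10 at 1.5-fold, in place of 1. Leaving out 1 library gave biological coefficients of variation from 13.7 to 34.5% and median CVs from 7.81 to 18.4%, both lowest without library 2. Other scalings shared at least 823 of the 906 genes, and plain CPM shifted log2 of library 2 over library 1 by 0.06. That shift changed the sign of this log2 value in 34 of 492 named genes at 10 CPM or more, none of them beyond 0.056 from 0 (BCL2L1, CCND2, EPCAM, EGR1, KARS1 and RPN1 among them), and moved 172 by more than counting error. No sign changed with DESeq2 size factors and 3 did with RNA without poly(A) left out. No gene 2-fold or more apart between libraries 1 and 2 changed sign among the named ones. Counts of list members without library 2, and counts of genes with library 2 highest or lowest under plain CPM, were alternatives chosen after seeing the data. No paired analysis was possible because only 1 group is described. With 3 libraries the SD itself is imprecise, and levels under 1 CPM rest on few fragments.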

Other observations

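Lists added after the values were seen described the protein-making machinery. Of 20 cytosolic aminoacyl-tRNA synthetases, which load tRNAs with amino acids, 6 were wide-ranging, against 9.77% of all genes. WARS1, the tryptophan enzyme, read 443, 1642 and 791 CPM, AARS1 587, 1377 and 833 CPM, and SARS1 352, 763 and 471 CPM. CARS1 and GARS1 were also highest in library 2, whereas FARSA, a subunit of the phenylalanine enzyme, was lowest there at 279, 131 and 217 CPM. KARS1, the lysine enzyme, was even at 453, 438 and 470 CPM. Of the 17 mitochondrial synthetases 2 were wide-ranging with library 2 lowest, against 5.29% of all genes, MARS2 at 45.7, 13.5 and 35.9 CPM and EARS2 at 100, 48 and 82 CPM.

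Genes of ribosome assembly were lowest in library 2 in all 24 of a list, against 50.6% of all genes, and 11 of the 24 were wide-ranging with library 2 lowest, against 5.29% of all genes. RBM19, which processes ribosomal RNA, read 99, 22 and 74.6 CPM, UTP20 70.8, 21 and 81.8 CPM, and NOP16 97.5, 26 and 70.7 CPM. POLR1A, the largest subunit of RNA polymerase I, read 180, 72.7 and 170 CPM. The abundant nucleolar protein NPM1 was even at 1262, 1169 and 1320 CPM. Of the 8 subunits of the cytosolic chaperonin TRiC none was wide-ranging, against 9.77% of all genes. The most variable was TCP1 at 986, 502 and 881 CPM. Outside these lists, SNHG1, a host gene of small nucleolar RNAs, read 67.9, 217 and 117 CPM. UBE2C, a ubiquitin enzyme of mitosis, was listed at 0.179, 0.120 and 0.266 CPM while the other 14 mitosis genes exceeded 10 CPM. Whether this low value reflects the cells or the counting of its transcripts was not tested.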
